A study of Mus musculus with 6 samples.

Results

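The immune checkpoint ligands are surface or secreted proteins through which a cell, here a tumor cell, engages receptors on T cells, NK cells and macrophages. The set consisted of 10 genes chosen by name, Cd274, Pdcd1lg2, Cd80, Cd86, Cd276, Vtcn1, Lgals9, Pvr, Nectin2 and Cd47, and all 10 were found among the 78298 genes of the deposited table. They were examined in RENCA, an established mouse renal adenocarcinoma cell line, in 3 samples transduced with a lentivirus for AQP1 overexpression (oe-AQP1) and 3 samples transduced with its negative control (oe-NC). Both viruses conferred puromycin resistance, the transgene was driven by the ubiquitin C promoter, the control was the empty vector, and all samples then spent 14 days in puromycin at 2 μg/mL, beginning 48 h after transduction. No untransduced RENCA sample was part of the comparison, and the labels do not say whether the 3 samples of a group came from separate transductions, so the p-values measure the spread between these samples, which may be technical.

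Checkpoint ligands fall into a few axes. Cd274 encodes PD-L1 and Pdcd1lg2 encodes PD-L2, the ligands of the inhibitory T cell receptor PD-1, and interferons are known to raise PD-L1 on many cells. Cd80 and Cd86 are best known on antigen-presenting cells, where they bind CD28 and CTLA-4. Cd276 (B7-H3) and Vtcn1 (B7-H4) are further B7 family members that restrain T cells. Lgals9 encodes galectin-9, a lectin that can engage TIM-3. Pvr (CD155) and Nectin2 (CD112) are adhesion molecules read by the activating receptor CD226 and the inhibitory receptor TIGIT, and Cd47 sends a "don't eat me" signal to macrophages through SIRPα. The deposited annotation placed 8 of the 10 genes in the KEGG pathway of cell adhesion molecules and gave 9 of them an immunoglobulin-type domain, while Lgals9 carried a galactoside-binding lectin domain.

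The libraries held between 18385714 and 21920899 expected counts. Aqp1, the gene overexpressed, lay at 381 to 390 CPM (counts scaled to a common library size after TMM normalization) with the AQP1 virus and at 1.37 to 2.11 CPM with the control virus, so the libraries matched their labels. The oe-NC sample 1 stood apart from the other oe-NC samples, with a chi-square per gene of 9.47 and 11.1 against them, where the other pairs within a group gave 1.71 to 2.04. Values without that sample are therefore given below. RENCA identity was checked by renal epithelial markers, of which 9 of 10 had a mean of at least 10 counts. Pax8, a renal transcription factor, had a mean of 164 CPM in oe-AQP1 and 172 CPM in oe-NC cells, whereas Epcam was at 0 in every sample. The summed level of these markers was 844 to 873 CPM in oe-AQP1 and 1020 to 1130 CPM for oe-NC. Of the 9 tested, 5 fell, against 16.6% of all genes tested (Cdh16, Krt8, Krt18, Krt19 and Cdh1, with log2 fold changes from -0.97 to -0.27). The part of this difference in the results on the ligands was not tested. In this series a gene was called changed at a Benjamini-Hochberg FDR under 0.05 by limma-voom, and a differentially expressed gene (DEG) if its absolute log2 fold change (log2FC, oe-AQP1 against oe-NC) also exceeded 1.

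Promoter sequences are shown for the 3 well-counted ligands with the largest increases, because PD-L1 in particular is a known interferon target. RefSeq windows were found for 8 of the 10 genes; Cd86 and Pvr were not among them. The lines below give the 250 bases before the RefSeq start site, 5′ to 3′ on the coding strand, from the RefSeq table of GRCm38.p6. Each window matched GRCm39 exactly once, for Lgals9 at chr11:78875751-78876000 (minus strand), for Cd274 at chr19:29344588-29344837 (plus strand) and for Cd47 at chr16:49675767-49676016 (plus strand). The Cd274 and Cd47 stretches lie inside the gene spans given below, which begin further upstream, at 29344529 and 49620896. The Lgals9 stretch overlaps its gene span, which ends at 78875798. A second Cd47 window, with its stretch at 49675774-49676023, is not printed. Capitals mark a match to the core of the interferon-stimulated response element (ISRE, searched on both strands as GAAA and GAAA with any 2 bases between them).
Lgals9: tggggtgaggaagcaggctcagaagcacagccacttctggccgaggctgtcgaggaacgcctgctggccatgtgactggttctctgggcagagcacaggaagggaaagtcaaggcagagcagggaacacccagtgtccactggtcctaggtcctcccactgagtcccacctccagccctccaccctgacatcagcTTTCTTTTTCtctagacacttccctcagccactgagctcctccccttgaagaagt
Cd274: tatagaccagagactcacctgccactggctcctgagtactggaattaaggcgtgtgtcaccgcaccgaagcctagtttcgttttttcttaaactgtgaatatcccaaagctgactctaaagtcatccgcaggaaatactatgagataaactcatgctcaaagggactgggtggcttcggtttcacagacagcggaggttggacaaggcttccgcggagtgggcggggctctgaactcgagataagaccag
Cd47: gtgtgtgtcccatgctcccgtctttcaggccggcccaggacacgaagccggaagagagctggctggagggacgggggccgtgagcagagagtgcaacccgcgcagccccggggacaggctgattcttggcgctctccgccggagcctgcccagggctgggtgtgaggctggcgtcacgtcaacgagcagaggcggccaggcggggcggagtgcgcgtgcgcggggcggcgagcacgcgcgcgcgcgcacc

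Over the full window of 300 bases, which adds 50 bases after the start, Lgals9 held 2 ISRE core matches, both on the strand opposite to the gene. The first began 55 bases before the start site and the second 15 bases after it. None of the other 7 genes with a window held an ISRE core match. No window of the 8 genes held a match to the interferon-γ-activated GAS element (TTCNNNGAA) or to an NF-κB site (GGG and TTTCC with any 2 bases between them). Of all 32851 windows in the table, 3.44% held an ISRE core, 8.30% a GAS element and 1.63% the NF-κB site. A missing match says only that these letters were not in this window. The upstream stretches differed in base composition, with a GC content of 58.4% for Lgals9, 50.4% for Cd274 and 73.2% for Cd47.

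Cd274, Lgals9 and Cd47 were each more than doubled in oe-AQP1 cells, with no overlap between the groups. Cd276 was slightly higher, Cd80 was higher at very low counts, Pvr was slightly lower, and Nectin2 did not pass the test. Pdcd1lg2, Cd86 and Vtcn1 had at most 3 counts in any sample and were removed by the filter on low counts before the test. Thus 6 of the 7 tested ligands changed at an FDR under 0.05, 5 of them higher and 1 lower. Of the 15522 genes tested, 32.5% changed, 16.0% higher and 16.6% lower. As DEGs, 4 of the 7 tested ligands were higher and 0 lower, against 4.39% and 0.844% of all genes tested. Cd80 entered the test only through the oe-AQP1 samples, where it was high. Under a filter of 10 or more counts in each sample, which left Cd80 out, 4 of 6 tested ligands were higher and 3 were DEGs. Of all 14006 genes tested under that filter, 2389 were higher and 416 were DEGs that were higher.

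**Figure D1:**
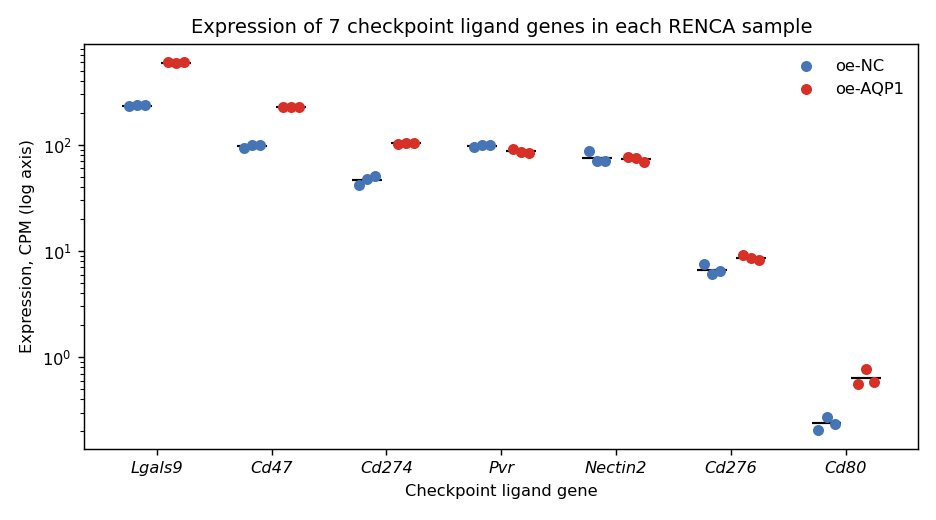
Expression of the 7 tested checkpoint ligand genes, in CPM on a log axis, with 1 point per sample (3 oe-NC in blue, 3 oe-AQP1 in red) and a bar at each group mean. The oe-AQP1 points of Lgals9, Cd47 and Cd274 lie above all oe-NC points, those of Nectin2 overlap with them, and those of Pvr lie slightly below. Pdcd1lg2, Cd86 and Vtcn1, with 0 to 3 counts per sample, are not drawn.

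Cd274, which encodes PD-L1 (ENSMUSG00000016496; GRCm39 chromosome 19, 29344529 to 29365495, plus strand), had 2008, 2284 and 2145 counts in oe-AQP1 samples 1 to 3 and 823, 864 and 1078 counts in oe-NC samples 1 to 3. Scaled to CPM, the means were 103 ± 1.49 (SD, n = 3) with AQP1 and 46.6 ± 4.36 (SD, n = 3) without. All oe-AQP1 samples lay close together and well above all oe-NC samples, among which sample 1 was the lowest. By limma-voom this was a log2FC of 1.15 ± 0.06 (SE; FDR = 3.42e-07), a 2.22-fold increase with a 95% confidence interval of 2.02 to 2.44. Without oe-NC sample 1 the log2FC was 1.07. The expected counts of Cd274 were fractional in all 6 samples. Its exons share 219 bases with those of Plgrkt and 581 bases with those of Gm36043, both on the opposite strand, and reads there cannot be told apart without strand information. Gm36043 averaged 42.5 counts per sample. Plgrkt averaged 1122.8 counts per sample and had a log2FC of 0.25 (FDR = 0.00381 by limma-voom).

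Pdcd1lg2, the PD-L2 gene next to Cd274 on chromosome 19 (ENSMUSG00000016498; 29388319 to 29448882), had 1, 0 and 1 counts in oe-AQP1 samples and 0, 0 and 1 in oe-NC samples. PD-L2 transcripts were thus at or near 0 in every sample, and no fold change is given. A count of 0 allows up to 3 counts, or 0.136 to 0.164 CPM depending on the library, so a change below this level was not detectable at this depth. Of the PD-1 ligands, PD-L1 was therefore the measurable transcript in RENCA cells.

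Lgals9, the galectin-9 gene (ENSMUSG00000001123; chromosome 11, 78853800 to 78875798, minus strand), had 11824, 12849 and 12279 counts in oe-AQP1 samples and 4552, 4337 and 5001 in oe-NC samples. It was the most abundant ligand in every sample, with means of 593 ± 7.67 CPM for oe-AQP1 and 235 ± 2.69 CPM for oe-NC (SD, n = 3 each). The spread within each group was small beside the difference. By limma-voom it rose by a log2FC of 1.34 ± 0.03 (SE; FDR = 4.61e-10), or 2.53-fold with a 95% confidence interval of 2.41 to 2.66. Without oe-NC sample 1 it was 1.33. Its counts were whole numbers in all 6 samples. Havcr2, which encodes the galectin-9 receptor TIM-3, had 0 counts in every sample.

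Cd47, the ligand of SIRPα (ENSMUSG00000055447; chromosome 16, 49620896 to 49735373, plus strand), had 4500, 5045 and 4616 counts in oe-AQP1 samples and 1823, 1804 and 2127 in oe-NC samples. These corresponded to 227 ± 2.49 CPM (SD, n = 3) and 97.1 ± 3.71 CPM (SD, n = 3), again without overlap. In limma-voom the log2FC came to 1.23 ± 0.04 (SE; FDR = 5.79e-09), or 2.34-fold with a 95% confidence interval of 2.20 to 2.49. Without oe-NC sample 1 it was 1.19. Its receptor gene Sirpa was also transcribed by RENCA cells, at 183 CPM in oe-AQP1 and 208 CPM in oe-NC cells, and was slightly lower with AQP1 (log2FC = -0.18, FDR = 0.0184 by limma-voom). The exons of Cd47 share 378 bases with those of Gm4633 on the opposite strand, which averaged 31.2 counts per sample. Gm4633 had a log2FC of 0.78 and did not pass the test (FDR = 0.0512 by limma-voom). The part of such reads in the Cd47 counts was not tested.

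Cd80 (ENSMUSG00000075122; chromosome 16, 38275923 to 38316697, plus strand) had 11, 17 and 12 counts in oe-AQP1 samples and 4, 5 and 5 in oe-NC samples. The groups did not overlap, but the higher group stayed at 0.638 ± 0.118 CPM (SD, n = 3). limma-voom gave a log2FC of 1.34 ± 0.34 (SE; FDR = 0.0138) and a 95% confidence interval from 0.57 to 2.11. Because Cd80 passed the filter on low counts only through the oe-AQP1 samples, this test is not taken as support for a change. The call was lost without oe-NC sample 1 (FDR = 0.0521 by limma-voom) or without oe-AQP1 sample 2 (FDR = 0.0594 by limma-voom). Its exons share 276 bases with Timmdc1 on the opposite strand, which averaged 968 counts per sample and had a log2FC of 0.00. The part of such reads in the Cd80 counts was not tested. Cd86, its partner in binding CD28 and CTLA-4 (ENSMUSG00000022901; chromosome 16, 36424044 to 36486443), had 0, 3 and 0 counts in oe-AQP1 samples and 1, 0 and 0 in oe-NC samples.

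Because Cd80 and Cd86 are typical of antigen-presenting cells, markers of macrophages and dendritic cells were read beside them. Adgre1 and Tyrobp were at 0 in every sample, and Ptprc, the pan-leukocyte marker CD45, had at most 3 counts. Of the 15 markers, 10 averaged under 10 counts. The summed level of the list ran from 102 to 110 CPM with AQP1 and from 106 to 108 CPM without, nearly all of it from Cd68, Cd74, Lyz2, Cd14 and Csf1r. Csf1r fell with AQP1 (log2FC = -1.51, FDR = 1.31e-05 by limma-voom), with fractional counts in all samples, Lyz2 fell by 0.52 on the log2 scale and Cd74 rose by a log2FC of 0.28. T, NK and B cell markers summed to 0.819 to 1.26 CPM with AQP1 and 1.15 to 1.60 CPM without, and 1 of these 12 genes, Cd79a, averaged at least 10 counts. For fibroblasts and endothelium, 7 of 10 markers averaged under 10 counts, and the exceptions were Col1a1, Pdgfrb and Pecam1. The list summed to 57.8 to 59.5 CPM with AQP1 and 52.5 to 66.4 CPM without, with Col1a1 lower (log2FC = -0.73, FDR = 0.00238 by limma-voom) and Pdgfrb higher (log2FC = 0.34, FDR = 0.00284 by limma-voom). In bulk RNA, a change in the share of cells that express a gene and a change in RNA per cell cannot be told apart.

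Cd276, the B7-H3 gene (ENSMUSG00000035914; chromosome 9, 58431412 to 58463665, minus strand), had 180, 190 and 168 counts in oe-AQP1 samples and 147, 110 and 137 in oe-NC samples. All oe-AQP1 samples were higher, at 8.64 ± 0.466 CPM (SD, n = 3) against 6.64 ± 0.759 CPM (SD, n = 3). limma-voom gave a log2FC of 0.38 ± 0.11 (SE; FDR = 0.0229), and the 95% confidence interval on the fold ran from 1.10 to 1.54. The call was lost when either oe-AQP1 sample 1, oe-AQP1 sample 2, oe-NC sample 2 or oe-NC sample 3 was left out, with FDR values up to 0.0831 by limma-voom. It was kept without oe-NC sample 1, at a log2FC of 0.47 (FDR = 0.00432 by limma-voom). Vtcn1, the B7-H4 gene (ENSMUSG00000051076; chromosome 3, 100732769 to 100804339), had 1, 0 and 0 counts in oe-AQP1 samples and 0, 1 and 2 in oe-NC samples.

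Pvr, the CD155 gene (ENSMUSG00000040511; chromosome 7, 19637503 to 19655085, minus strand), had 1825, 1864 and 1736 counts in oe-AQP1 samples and 1892, 1814 and 2116 in oe-NC samples. After scaling, all oe-AQP1 samples were below all oe-NC samples, at 87.2 ± 4.45 CPM (SD, n = 3) against 98.3 ± 1.65 CPM (SD, n = 3). The decrease was small in limma-voom, at a log2FC of -0.18 ± 0.05 (SE; FDR = 0.0164), with a fold of 0.89 and a 95% confidence interval of 0.82 to 0.95. The call was lost without oe-AQP1 sample 2 (FDR = 0.0847 by limma-voom) or sample 3 (FDR = 0.0828 by limma-voom), and kept without oe-NC sample 1 (log2FC = -0.19, FDR = 0.00051 by limma-voom). Nectin2, the CD112 gene on the same chromosome (ENSMUSG00000062300; 19450569 to 19484408, minus strand), had 1528, 1643 and 1430 counts in oe-AQP1 samples and 1704, 1299 and 1490 in oe-NC samples. The groups overlapped, with oe-NC sample 1 the highest of all samples on the CPM scale. Its log2FC by limma-voom was -0.03 ± 0.08 (SE; FDR = 0.781), and the 95% confidence interval on the fold ran from 0.86 to 1.11. Without oe-NC sample 1 the log2FC was 0.07 (FDR = 0.245 by limma-voom).

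**Figure D2:**
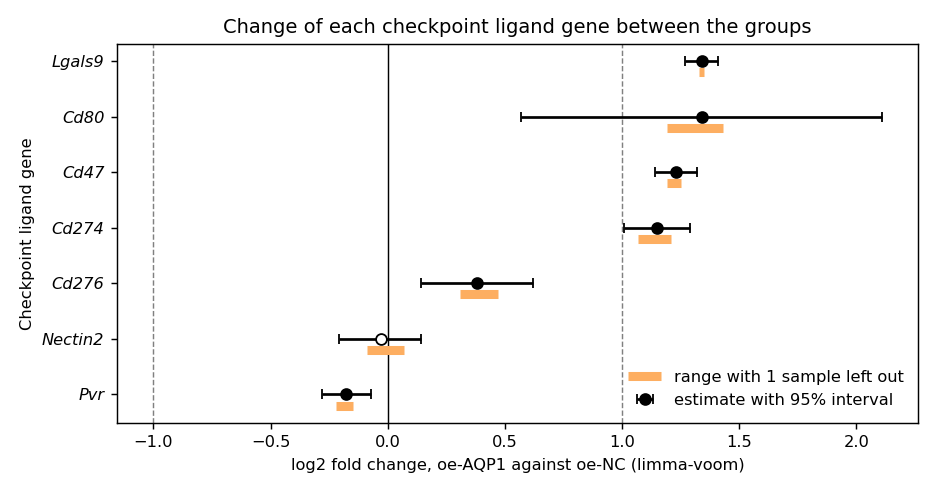
log2 fold change of the 7 tested checkpoint ligand genes, oe-AQP1 against oe-NC. Points with error bars give the limma-voom estimate and its 95% confidence interval (filled at an FDR under 0.05, open for Nectin2), orange bars the range when each of the 6 samples was left out in turn, and dashed lines a log2FC of -1 and 1. The intervals of Lgals9, Cd47 and Cd274 lie above 1, and that of Cd80 is wide, from 0.57 to 2.11.

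For single genes, an exact two-sided permutation test gave p = 0.1 for Cd274, Cd80, Cd276, Lgals9, Pvr and Cd47 and p = 0.8 for Nectin2, where 0.1 is the smallest p that 3 samples against 3 allow. Of the 7 tested ligands, 6 had no overlap of CPM between the groups, 5 of them higher in oe-AQP1, where 47.3% of all genes tested had no overlap and 23.5% were higher without overlap. Cd80, which passed the filter on low counts only through the oe-AQP1 samples, is counted among these ligands. On the scale of log2FC, Cd274 stood at percentile 96.1, Cd47 at 96.4 and Lgals9 at 96.9 of all genes tested.

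To compare levels between ligands, counts were divided by the summed exon length of each gene and scaled to the same total in every sample (TPM). In oe-NC cells Lgals9 led at 401 ± 7.62 TPM (SD, n = 3), followed by Nectin2 at 73.2 ± 11.2 TPM, Pvr at 61.2 ± 0.621 TPM, Cd274 at 44.2 ± 3.04 TPM and Cd47 at 42.9 ± 0.526 TPM. The samples of Cd274 (41.0 to 47.1 TPM) and Cd47 (42.3 to 43.3 TPM) overlapped, so their order was not resolved. Nectin2 (66.0 to 86.1 TPM) lay above Pvr (60.6 to 61.8 TPM) by little more than its own SD. In oe-AQP1 cells Lgals9 reached 1050 ± 12.8 TPM (SD, n = 3), and Cd47 (104 ± 1.07 TPM) and Cd274 (102 ± 1.90 TPM) moved above Nectin2 (73.8 ± 3.65 TPM) and Pvr (56.3 ± 2.62 TPM). The oe-AQP1 samples of Cd47 (103 to 106 TPM) and Cd274 (99.7 to 103 TPM) met only at the rounded value of 103 TPM. Cd276 stayed far lower, at 5.03 ± 0.706 TPM in oe-NC and 6.78 ± 0.337 TPM in oe-AQP1 cells, and Cd80 lower still, at 0.222 ± 0.029 and 0.622 ± 0.116 TPM. Pdcd1lg2, Cd86 and Vtcn1 were all below 0.07 TPM on average in either group. These levels use all annotated exons of a gene and would shift if a shorter isoform dominated.

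**Figure D3:**
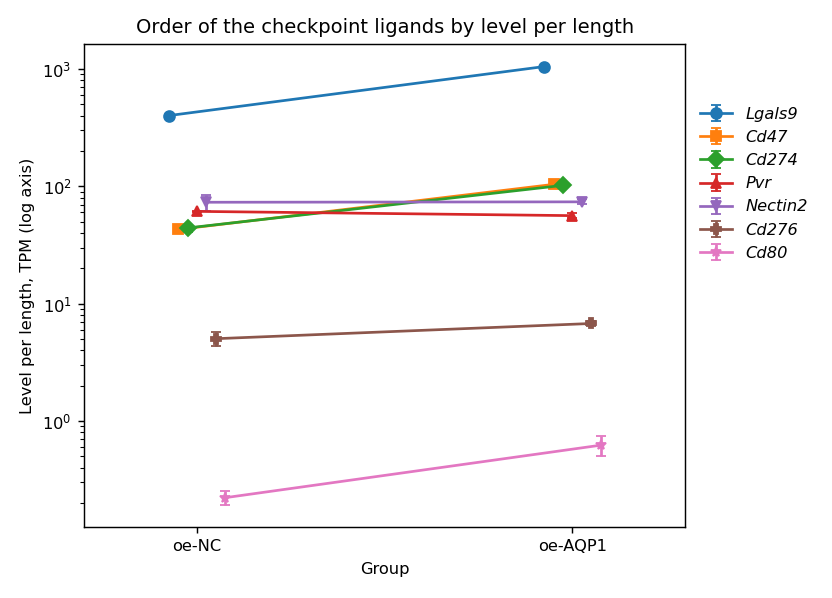
Level per length of the 7 tested checkpoint ligand genes, in TPM on a log axis, as mean ± SD of 3 samples in each group, with a line joining the groups. The lines of Cd47 and Cd274 run close together, from 42.9 and 44.2 TPM in oe-NC to 104 and 102 TPM in oe-AQP1, and cross those of Nectin2 and Pvr.

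Genes with a pattern like that of each DEG were sought by the root mean square distance between log2 CPM values, each centered on its own mean over the 6 samples. For Cd274 the nearest genes were Mitd1 (distance 0.033), Dnah1 (0.040) and Lgals8 (0.043), and 43 named genes lay within 0.1. For Lgals9 they were the interferon-induced genes Oas1c (0.032) and Rigi (0.036) together with Shisa5 (0.032), and 44 genes lay within 0.1. For Cd47 they were Aftph (0.028), Gvin2 (0.030) and Eif2ak2 (0.031), the last encoding the double-stranded RNA-dependent kinase PKR, and 56 genes lay within 0.1. Cd80, which passed the filter on low counts only through the oe-AQP1 samples, had no gene within 0.1. Its nearest were Tyr (0.118), 2410039M03Rik (0.133) and B230307C23Rik (0.133). With only 2 groups, this distance mostly reflects the size of the group difference.

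Upstream of PD-L1, 18 genes of its known transcriptional control were examined, among them interferon receptors, Janus kinases, STAT and IRF factors, NF-κB subunits, Myc and Hif1a. All 18 were tested, 8 were higher and 2 lower at an FDR under 0.05, and the median log2FC was 0.16. Over all 15522 genes tested, 16.0% were higher and 16.6% lower. Stat2 rose most (115 to 447 CPM, log2FC = 1.97, FDR = 8.79e-11 by limma-voom). Irf1, a direct activator of Cd274 in the interferon response, rose from 24.5 to 66.0 CPM (log2FC = 1.43, FDR = 2.54e-08 by limma-voom), with fractional counts in all samples. Irf2, Irf9, Ifngr2, Ifnar2 and Myc rose by a log2FC of 0.27 to 0.77. Ifngr1 (log2FC = -0.21) and Jak1 (log2FC = -0.11) were lower, Jak1 barely so at FDR = 0.0457 by limma-voom. Stat3, Rela, Nfkb1 and Hif1a did not pass the test, with log2FC values from -0.05 to 0.20. Jak2, which lies on the same chromosome as Cd274, had a log2FC of 0.12 (FDR = 0.26 by limma-voom).

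Genes that act on the PD-L1 protein showed small differences. Of 14 tested, 1 was higher, 7 were lower and 6 did not pass the test, with a median log2FC of -0.16. Among all genes tested, 16.0% were higher and 16.6% lower. Cmtm6, which protects PD-L1 from lysosomal degradation, had a log2FC of -0.07 (FDR = 0.401 by limma-voom). Btrc, a ubiquitin ligase subunit that targets PD-L1, rose (log2FC = 0.48, FDR = 0.00034 by limma-voom). Hip1r, which directs PD-L1 to the lysosome, and Adam17, a protease that can shed it, both fell by 0.30 on the log2 scale. The counts of Hip1r were fractional in all samples. None of the 14 was a DEG.

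Among genes of phagocytosis signals around CD47, 1 of 9 tested was higher and 5 were lower, against 16.0% and 16.6% of all genes tested. The median log2FC of the list was -0.18. Lrp1, which encodes a receptor for calreticulin, fell from 256 to 124 CPM (log2FC = -1.03, FDR = 4.15e-06 by limma-voom). Itgav, an integrin subunit, fell by 0.48 on the log2 scale. B2m, the light chain of MHC class I, rose from 1110 to 1940 CPM (log2FC = 0.81, FDR = 3.61e-07 by limma-voom). Calr, the "eat me" signal calreticulin, had a log2FC of 0.07 (FDR = 0.109 by limma-voom). Qpctl, the enzyme that modifies CD47 for SIRPα binding, had a log2FC of -0.18 (FDR = 0.204 by limma-voom), with fractional counts in all samples. Thbs1, a soluble CD47 ligand, fell by 0.31 on the log2 scale, and so did Cd24a, a further "don't eat me" gene, by 0.38.

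Among 26 other co-signalling ligands, 14 had enough counts to be tested, of which 4 were higher and 4 lower, with a median log2FC of -0.07. The shares over all genes tested were 16.0% higher and 16.6% lower. Icam1, an adhesion molecule for T cells, just passed the fold threshold (25.9 to 52.8 CPM, log2FC = 1.02, FDR = 1.33e-06 by limma-voom), with fractional counts in all samples. Tnfrsf14, the ligand of BTLA also known as HVEM, had 15, 16 and 16 counts with AQP1 and 7, 7 and 8 without (log2FC = 0.97, FDR = 0.0257 by limma-voom). It too entered the test only through the oe-AQP1 samples. With at least 10 counts in every sample 3 of 13 tested genes of the list were higher, against 2389 of all 14006 genes tested. Tnfsf15 rose from 12.9 to 21.2 CPM (log2FC = 0.72, FDR = 0.000131 by limma-voom). The galectins Lgals1 (log2FC = -0.32, FDR = 0.00174 by limma-voom) and Lgals3 (log2FC = -0.34, FDR = 4.54e-05 by limma-voom) fell, in the direction opposite to that of Lgals9. Lgals8, a galectin outside this list, went from 101 to 220 CPM (log2FC = 1.13). It was picked for a pattern near that of Cd274, so its rise follows from that choice. Nectin1 was also lower (log2FC = -0.54, FDR = 0.000769 by limma-voom). Vsir, which encodes the checkpoint protein VISTA, had a log2FC of -0.23 (FDR = 0.141 by limma-voom). Tnfsf4, Tnfsf14, Cd70, Nectin3 and Cd200 had 0 counts in all samples.

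Of 13 ligands of NK cell receptors, 9 were found under these symbols and 7 tested, of which 2 were higher and 0 lower, with a median log2FC of 0.26. By comparison, 16.0% of all genes tested were higher and 16.6% lower. Clec2d, a ligand of an inhibitory NKR-P1 receptor, had 222, 271 and 189 counts in oe-AQP1 samples and 25, 37 and 38 in oe-NC samples (log2FC = 2.69, FDR = 9.87e-06 by limma-voom). H2-T23, which encodes Qa-1, the ligand of the inhibitory receptor NKG2A, had 4024, 4439 and 3974 counts with AQP1 and 1113, 995 and 1093 without (log2FC = 1.88, FDR = 7.22e-10 by limma-voom), with fractional counts in all samples. The NKG2D ligands Raet1d, Raet1e, Ulbp1 and H60b had log2FC values from -0.16 to 0.33, none of which passed the test, and the counts of Raet1d, Raet1e and Ulbp1 were fractional in all samples.

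The receptors for these ligands were nearly silent in the cultures. Of 11 receptor genes, 9 averaged under 10 counts, among them Pdcd1 (0 to 3 counts) and Tigit (1 to 12 counts), and Cd226 had 0 counts in all samples. The exceptions were Sirpa and Rgmb, a further binding partner of PD-L2, which had a log2FC of -0.08 (FDR = 0.484 by limma-voom).

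**Figure D4:**
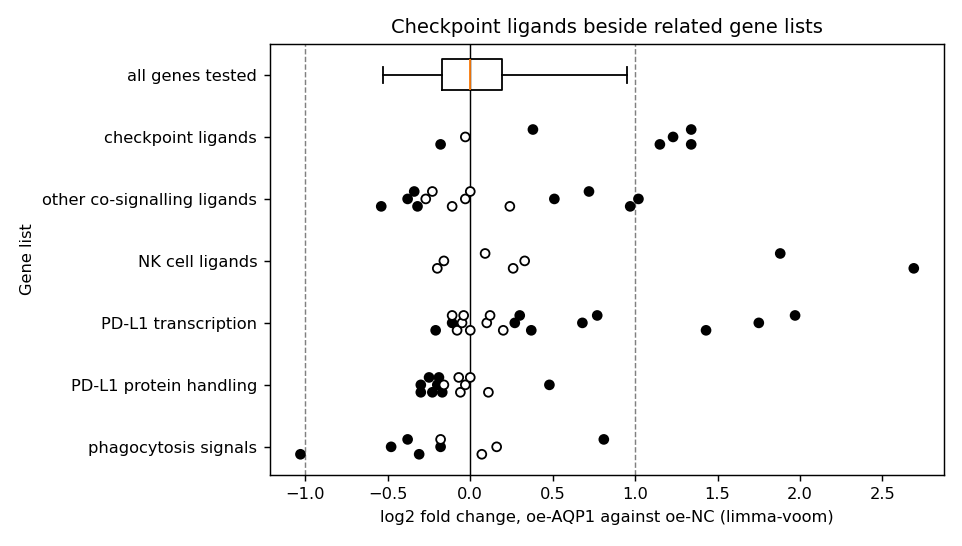
log2 fold changes, oe-AQP1 against oe-NC, of the tested genes in the checkpoint ligand set and in 5 related lists, with 1 point per gene (filled at an FDR under 0.05, open otherwise) and dashed lines at -1 and 1. The box shows all 15522 genes tested (median, percentiles 25 and 75, and whiskers at percentiles 5 and 95). Of the checkpoint ligands, Lgals9, Cd80, Cd47 and Cd274 lie above 1, Cd276 at 0.38, Nectin2 at -0.03 and Pvr at -0.18. Cd80 passed the filter on low counts only through the oe-AQP1 samples. The genes of PD-L1 protein handling all lie between -0.30 and 0.48.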

How the data were processed

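RNA from 3 oe-AQP1 and 3 oe-NC samples of RENCA cells was sequenced on TruSeq libraries, and samples were grouped by their titles. The authors deposited expected counts per gene, not scaled between samples, and 2 columns of group means that were left aside. The paper names GRCm39 as the genome. The submitters' processing notes name fastp, HISAT2, featureCounts, Subread and GRCm38/mm10 without roles, and this difference was not resolved. Gene positions and lengths are those of GENCODE M39 on GRCm39, in which 78168 of 78298 gene identifiers were found.

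Expected counts were rounded, filtered with edgeR's filterByExpr by group (15522 genes kept), scaled by TMM (factors 0.993 to 1.006) and compared with limma-voom, as the paper's methods state, using limma 3.58.1, edgeR 4.0.16 and R 4.3.3. CPM values use the TMM-scaled library size. TPM values were computed here over all genes. No p-value was adjusted over a list alone. The paper's methods set interferon-stimulated and viral defense genes aside to limit artifacts of transfection, and no such filter was applied here. The part of such artifacts in the results on the ligands was not tested. The scripts were tested on simulated data. The ligands, gene lists, motifs and tests were chosen with earlier results of these data known. Named genes were all ligands, up to 5 DEGs of each list (at least 3 changed genes where available), receptors and markers with a mean of at least 10 counts, and the 3 genes nearest in pattern to each DEG. Some genes that this rule or the lists hold are not reported here. The other genes named from the lists and the overlapping or neighboring genes were chosen after their values were seen.

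The alternatives tried were DESeq2 1.42.0, the quasi-likelihood test of edgeR, sample quality weights, 3 scalings, 2 filters, unrounded counts, a replicate block, an FDR under 0.01 and leaving out each sample.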

Additional observations from a re-analysis of the deposited data

How the results depend on the processing

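Cd274, Lgals9 and Cd47 kept their direction and their FDR call under every alternative tried, with log2FC between 1.07 and 1.21, 1.32 and 1.35, and 1.19 and 1.25. With Cd80 among the tested ligands, 3 rather than 5 were higher with DESeq2 and with an FDR under 0.01. That count ranged from 3 to 5 with 1 sample left out. With no filter on low counts, all 10 ligands were tested, 4 were higher and 1 was lower. The count of lower ligands was 0 with an FDR under 0.01 and ranged from 0 to 1 with 1 sample left out. In DESeq2 the adjusted p was 0.0959 for Cd80 (log2FC = 1.43) and 0.0658 for Cd276 (log2FC = 0.38). The sign of Nectin2 was positive with sample quality weights (log2FC = 0.04) and without oe-AQP1 sample 3 (0.01) or oe-NC sample 1 (0.07), and ranged from -0.09 to 0.07 with 1 sample left out. Of the genes of PD-L1 transcription, 1 rather than 2 was lower with edgeR, DESeq2, library size alone, at least 10 counts in every sample, the replicate block and an FDR under 0.01, 3 were lower with sample quality weights, and 1 to 3 with 1 sample left out (3 without oe-NC sample 1 and 1 without any other). Higher genes of PD-L1 protein handling and of phagocytosis signals numbered 2 each with sample quality weights, and 1 to 2 each with 1 sample left out (2 without oe-NC sample 1). Cd80 could not be tested with at least 10 counts in every sample. Over all genes, DEGs numbered 681 higher and 131 lower, against 416 and 66 with at least 10 counts in every sample, 932 and 204 with no filter, and 569 and 86 at an FDR under 0.01, where 1570 and 1572 genes changed rather than 2481 and 2569. Deviations of same-numbered samples correlated by 0.014, -0.022 and -0.073, so no effect shared by same-numbered samples was visible. The labels do not say whether they were handled as pairs. With the replicate block 5 ligands were higher and 1 lower, as without it, and 2346 genes were higher and 2479 lower. Ligands with 0 to 3 counts stayed beyond the reach of this depth.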

Other observations

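The genes on either side of the ligands that were DEGs were read as a description, chosen after the values were seen. Of the 4 tested genes nearest to Cd274 on chromosome 19, Insl6 was at 15.7 ± 1.92 CPM without and 33.2 ± 1.35 CPM with AQP1 (SD, n = 3 each; log2FC = 1.08, FDR = 7.2e-06 by limma-voom), and Plgrkt rose by a log2FC of 0.25. Gm36043 and A930007I19Rik did not pass the test. Around Cd80, none of the genes Adprh, D930030I03Rik, Timmdc1 and Gm56613 passed it. Next to Lgals9 on chromosome 11, Nos2, the inducible nitric oxide synthase gene, fell from 13.3 ± 0.135 to 4.92 ± 0.498 CPM (SD, n = 3; log2FC = -1.44, FDR = 2.62e-06 by limma-voom). Lyrm9 and Ksr1 did not pass the test and Wsb1 rose by a log2FC of 0.23.

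Within the span of Cd47, outside its exons and on the same strand, ENSMUSG00000135280 was at 0.239 ± 0.109 CPM without and 2.18 ± 0.0566 CPM with AQP1 (SD, n = 3 each). It passed the filter on low counts only through the oe-AQP1 samples, so no test is given. Cip2a and Ift57, the nearest tested genes before Cd47, had log2FC values of 0.04 and -0.03 and did not pass the test.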
